A study of Ovis aries with 16 samples.

Results

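miR-122-5p is the microRNA (miRNA) that dominates in hepatocytes. It was followed here as 1 row of a table of 1105 small RNA names counted in 16 libraries from sheep serum and from extracellular vesicles (EVs) isolated from serum. The row was chosen by its name, with earlier results of these data known. The animals were adolescent sheep with normal hearts of 2 ventricles, and the operation was a single-stage Fontan, which leads systemic venous blood to the lungs without a pumping ventricle. The 4 groups were EVs after surgery (n = 3, letters D, E and F of the sample titles), EVs before surgery (n = 5, letters A to E), serum after surgery (n = 3, letters D, E and F) and serum before surgery (n = 5, letters A to E). The libraries after surgery are labelled D6 for letter D and D7 for letters E and F. The libraries from before surgery carry the treatment label Control, and no sham-operated group is among the samples used here, so the Fontan circuit, the procedure itself and the passage of time cannot be told apart. Letters were compared as the titles pair them; the labels do not state that a letter is 1 animal. Separate animals within a group are likewise not stated, so p-values measure the spread between these libraries, which may in part be technical.

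In the liver, miR-122 is transcribed almost only in hepatocytes, where it is among the most abundant miRNAs and acts in lipid and cholesterol metabolism. Damaged hepatocytes release it, and its level in blood is widely used as a marker of liver injury. In blood it is found bound to proteins as well as inside vesicles. Congestion of the liver is a known complication of the Fontan circulation, since central venous pressure is raised.

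The unit below is the share, the percent of all counts of a library that fell on miR-122-5p. A share cannot tell more miR-122-5p from less of all other names, and neither the blood volume nor a spiked standard ties it to a concentration. Library totals ran from 65537 to 639207 counts. The row held between 363 and 62974 counts, so the Wilson 95% intervals of single shares are narrow, and they cover counting error only, since PCR copies of a molecule may be counted more than once. miRNAs of red blood cells, as a list of 10 names, took 15.9% to 66.8% of a library. Libraries fell into sets that had nearly the same names listed at 0. Serum of letter B before surgery shared 524 such names with serum of letters E and F after surgery, and EVs of letters A, B and E before surgery shared 292 with EVs of letters E and F after surgery. The other sets each held libraries of 1 fraction and 1 time. miR-122-5p itself was above 0 in all 16 libraries.

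miR-122-5p in EVs was high in 2 of 3 letters after surgery. Its share was 13.3% in letter D (95% interval 13.2 to 13.4), 18.4% in letter E (18.3 to 18.6) and 0.641% in letter F (0.592 to 0.695) after surgery. Before surgery it was 0.535% in letter A, 2.25% in letter B, 0.0899% in letter C, 1.30% in letter D and 7.97% in letter E. Letters D and E after surgery thus lay above all 5 EV libraries from before surgery, and letter F lay among them, below letters B, D and E. In EVs of letter E after surgery miR-122-5p was the most abundant of all names, ahead of the red blood cell miRNAs miR-16-5p and miR-486-5p. It ranked 3 in letter D and 15 in letter F after surgery, and between 3 and 85 before it.

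**Figure D1:**
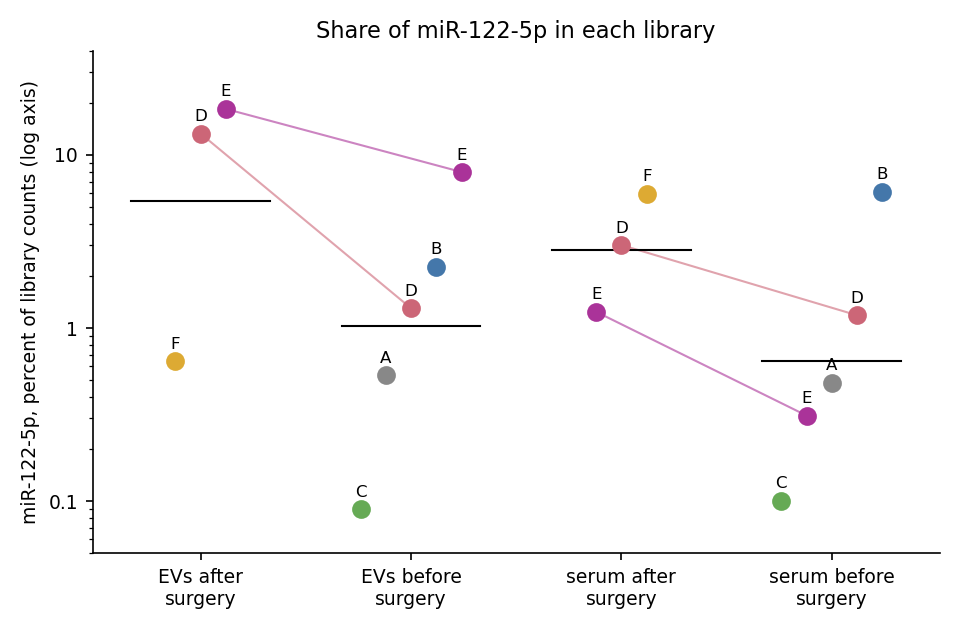
Each point is 1 library, with the letter of its title. The vertical axis is the miR-122-5p share in percent of library counts on a log axis, horizontal bars are geometric means of a group, and lines join letters D and E after and before surgery. In EVs letters D (13.3%) and E (18.4%) after surgery lie above every library from before surgery and letter F (0.641%) does not, while in serum the groups overlap.

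Over the EV groups the share averaged 10.8% ± 9.16 after surgery (SD, n = 3) and 2.43% ± 3.20 before surgery (n = 5). The geometric means differed by 5.27-fold, with a log2 difference of 2.40 between groups whose SD on that scale was 2.67 after and 2.42 before surgery. The exact permutation test gave p = 0.25 (2-sided, n = 3 and 5, adjusted p = 0.625 over 5 exact tests), where the smallest p this design allows is 0.0357. The difference was therefore not larger than the spread between libraries. Without letter F after surgery the log2 difference was 3.94 and without letter E after surgery 1.51. Among the 5 EV libraries that share their zeros, which leave out letter D at both times and letter C, it was 0.69 (exact permutation p = 0.8, n = 2 and 3). Groups of that size cannot give a p under 0.05 in this test, whatever the values, so it decides nothing. The edgeR fit of the same 5 libraries, scaled by TMM, put the log2 difference at 2.29 (SE 1.20, adjusted p = 0.984).

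A fit across all names placed miR-122-5p among the largest EV changes, but no name passed. Its log2 fold change in EVs was 3.32 (SE 1.23) by edgeR's quasi-likelihood test, which scales libraries by TMM factors and not by totals. That was the second largest of 856 log2 fold changes, behind miR-6836-3p (3.67, SE 2.33), against a median of −0.017 over all names. The unadjusted p was 0.0213, which ranked 7 of 856, and the Benjamini-Hochberg adjusted p was 0.999. The calls in this comparison were 0% of 856 names by edgeR at an adjusted p under 0.05, with 15 names at an unadjusted p under 0.05, and DESeq2 and limma-voom called 0 as well. Under library totals the log2 fold change of miR-122-5p was 2.15 (SE 1.04, adjusted p = 0.994), when the median over all names was −0.55.

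In serum, miR-122-5p overlapped between the times. Its share after surgery was 3.02% in letter D (95% interval 2.97 to 3.06), 1.24% in letter E (1.19 to 1.29) and 5.96% in letter F (5.87 to 6.05). Before surgery it was 0.484% in letter A, 6.15% in letter B, 0.100% in letter C, 1.18% in letter D and 0.312% in letter E. All 3 libraries after surgery exceeded 4 of the 5 from before surgery, and serum of letter B before surgery was the highest of all 8. That library is the one that shared its zeros with serum of letters E and F after surgery. The part that this sharing has in the result was not tested beyond the values given here.

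The serum share averaged 3.41% ± 2.38 after surgery (SD, n = 3) and 1.65% ± 2.55 before surgery (n = 5). The geometric means differed by 4.38-fold (log2 difference 2.13, exact permutation p = 0.179, 2-sided, adjusted p = 0.625). In the fit across all names the log2 fold change was 1.09 (SE 1.24, adjusted p = 0.968, edgeR), the rank from the top was 77 of 696, and the median over all names was −0.20. Under library totals it was 1.03, with a median of −0.93 over all names. Of the 696 names, edgeR called 0%, 54 had an unadjusted p under 0.05, and DESeq2 and limma-voom called 0. One library set the size of this serum estimate. Without letter B before surgery the log2 fold change was 3.76 (SE 0.91, unadjusted p = 0.00147, adjusted p = 0.186, edgeR) and the exact permutation test of the shares gave p = 0.0571 (log2 difference 2.94, n = 3 and 4). That p is the smallest this size allows, because the library left out was the only one from before surgery above those after it. The nearest shares then were 1.24% in letter E after surgery and 1.18% in letter D before surgery, whose counting intervals overlap. With a term for the zero-sharing sets, which leaves letter B before surgery against letters E and F after surgery, the direction turned (log2 fold change −1.02, SE 1.79, adjusted p = 1, edgeR).

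**Figure D2:**
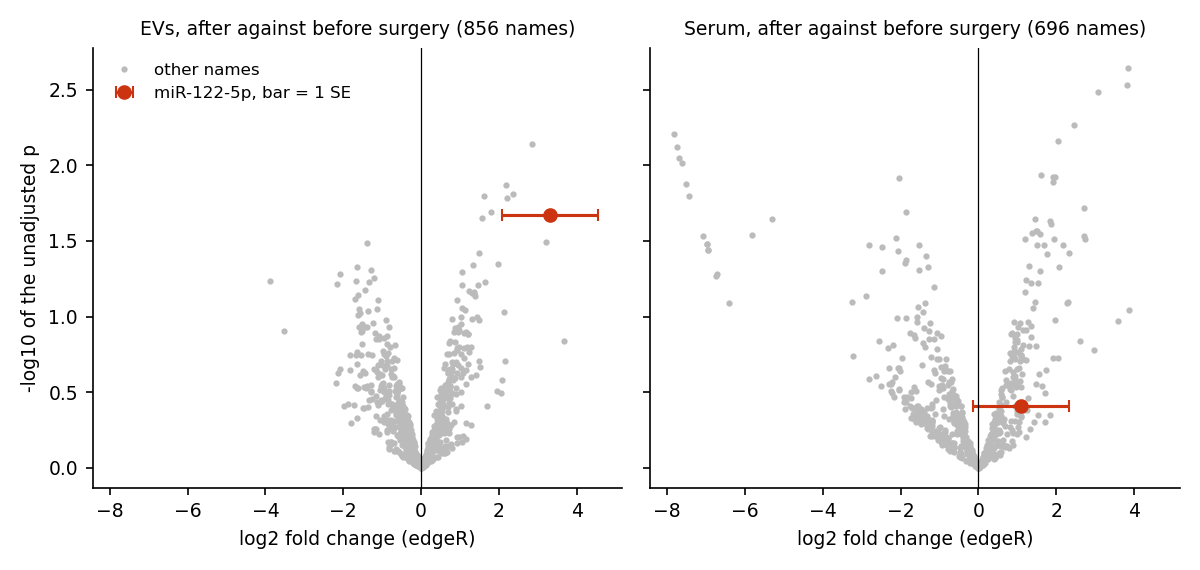
Each grey point is 1 name in the edgeR fit after against before surgery, in EVs (left, 856 names) and serum (right, 696 names). The horizontal axis is the log2 fold change and the vertical axis is −log10 of the unadjusted p. miR-122-5p is red with a bar of 1 SE. It lies at 3.32 in EVs, near the right edge of all names, and at 1.09 in serum, within the bulk.

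Letters D and E are the ones sampled at both times, and in both of them the share was higher after surgery in EVs and in serum. In EVs of letter D it was 13.3% after and 1.30% before surgery, a ratio of 10.2 (95% counting interval 9.88 to 10.6). In EVs of letter E it was 18.4% after and 7.97% before surgery, a ratio of 2.31 (2.26 to 2.37). Serum of letter D gave 3.02% after and 1.18% before surgery, a ratio of 2.55 (2.38 to 2.72). Serum of letter E gave 1.24% after and 0.312% before surgery, a ratio of 3.98 (3.61 to 4.39). The larger change was thus in EVs for letter D and in serum for letter E. Only in EVs of letter E did the libraries after and before surgery belong to the same set of shared zeros. In EVs of letter D and in serum of letters D and E the sets differed. The part of this in the ratios was not tested. On the log2 scale the mean change was 2.28 ± 1.51 in EVs and 1.67 ± 0.455 in serum (SD, n = 2 letters). The exact sign-flip permutation test gave p = 0.5 for each fraction, the smallest p that 2 letters allow, and the intervals of single ratios cover counting error alone.

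The same 4 changes were larger, or for serum of letter E about the same size, when the scale was set by other names. Relative to the geometric mean of the 375 names counted above 0 in every library, the ratios were 19.3 in EVs of letter D, 4.04 in EVs of letter E, 9.75 in serum of letter D and 4.25 in serum of letter E. Most other names had a lower share after surgery in these pairs: the median log2 change of the 375 names was −0.96 in EVs of letter D, −0.94 in EVs of letter E, −2.28 in serum of letter D and −0.18 in serum of letter E. Among these names miR-122-5p ranked 2 from the top in EVs of letter D, 20 in EVs of letter E, 16 in serum of letter D and 14 in serum of letter E. A rise of the share by more than 2-fold in all 4 pairs, a criterion set after the values were seen, was met by 3 of the 375 names (0.8%). The other 2 were miR-1915-3p and miR-4488, GC-rich names to which pieces of unrelated RNAs may map.

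Names of that kind were kept as a list called fragment-prone here. After against before surgery edgeR called 0 of its 20 tested members in EVs and 0 of 22 in serum, with 1 in EVs and 7 in serum at an unadjusted p under 0.05. Over all names edgeR also called 0, with 15 of 856 in EVs and 54 of 696 in serum at an unadjusted p under 0.05. The list held 26 names, of which 23 were in the table and 11 were above 0 in all libraries. Its summed share was 5.01% to 19.7% in EVs after and 1.76% to 17.0% in EVs before surgery, and 2.90% to 36.3% in serum after and 0.633% to 5.85% in serum before surgery. The highest value of each fraction, 19.7% in EVs and 36.3% in serum, belonged to letter D after surgery. Among the other libraries after surgery, EVs of letter E, with the highest miR-122-5p share, had the 5.01%. Serum of letter F, with the highest miR-122-5p share in serum at that time, had the 2.90%. Before surgery, serum of letter B was highest for both the list (5.85%) and miR-122-5p (6.15%). Letter C before surgery was lowest for both in serum (0.633% and 0.100%) and in EVs (1.76% and 0.0899%). In EVs before surgery the list was highest in letter B (17.0%) and miR-122-5p in letter E (7.97%). With this list taken out of the totals, the log2 change within letter D was 3.63 in EVs and 1.95 in serum, against 3.35 and 1.35 with it. Since the list had the higher share after surgery in letter D, leaving it out can only enlarge these changes, and its part in them was not tested. Red blood cell names in EVs took 20.8% to 28.8% after and 15.9% to 56.5% before surgery, and in serum 24.0% to 51.0% after and 21.0% to 66.8% before surgery. All 8 of the 10 listed red blood cell names that were in the table were above 0 in every library. Names of heart and skeletal muscle, of which 5 of 7 were in the table and 1 was above 0 in all libraries, took 0.0517% to 0.120% in EVs after and 0.0679% to 0.128% before surgery, and 0.0397% to 0.139% in serum after and 0.0189% to 0.122% before surgery. Of these, miR-133b was at 0 in 11 libraries, miR-1-3p in 8 and miR-133a-3p in 5, so the sums hold different names in different libraries. The lowest miR-122-5p shares of both fractions, in letter C before surgery, stood in the libraries with the highest red blood cell shares, 56.5% in EVs and 66.8% in serum. The part of red cell RNA in those low shares was not tested, and with the red blood cell list left out of the totals the exact permutation test of after against before surgery gave p = 0.25 in EVs (log2 difference 2.30, n = 3 and 5) and p = 0.214 in serum.

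The EV-to-serum ratio asks how the miR-122-5p share of the vesicle fraction relates to that of the serum of the same letter and time. After surgery it was 4.41 in letter D (95% counting interval 4.33 to 4.48), 14.9 in letter E (14.2 to 15.5) and 0.108 in letter F (0.0992 to 0.117). Before surgery it was 1.10 in letter A (0.975 to 1.25), 0.367 in letter B (0.348 to 0.386), 0.898 in letter C (0.799 to 1.01), 1.10 in letter D (1.02 to 1.18) and 25.6 in letter E (23.3 to 28.0). Before surgery 3 letters were thus near equal shares, letter B had the lower share in EVs, and letter E the higher one by far. Letter E had the highest ratio at both times. Letter F after surgery had the lowest ratio of all 8, with a serum share 9.30 times its EV share.

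**Figure D3:**
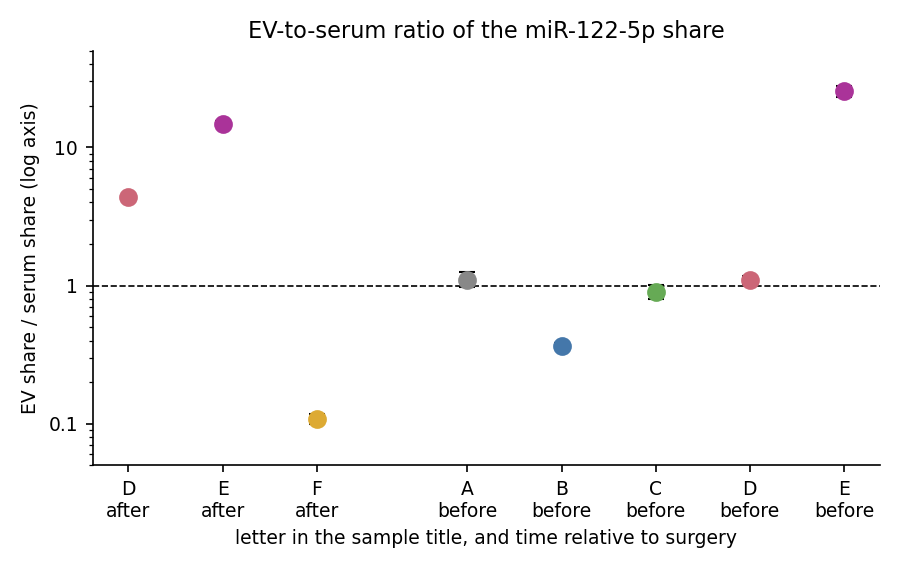
Each point is the miR-122-5p share in EVs divided by that in serum of the same letter and time, on a log axis, with bars for the 95% counting interval where they exceed the point. The dashed line marks equal shares. Letters D (4.41) and E (14.9) after surgery and E (25.6) before surgery lie well above the line, and letters F (0.108) after and B (0.367) before surgery lie below it.

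Within letters, the ratio of letter D was 4.41 after and 1.10 before surgery, and that of letter E was 14.9 after and 25.6 before surgery, so the letters sampled at both times moved in opposite directions. The mean log2 ratio was 0.94 ± 3.70 after surgery (SD, n = 3) and 0.67 ± 2.33 before surgery (n = 5). The difference of 0.27 was far below the spread between letters (exact permutation p = 0.893, 2-sided, n = 3 and 5, adjusted p = 0.893). Neither mean was larger than that spread (exact sign-flip permutation p = 0.75 for each, n = 3 and n = 5, adjusted p = 0.893, with smallest possible p of 0.25 and 0.0625). The sign of these means rests on the scaling and on letter E. Relative to names above 0 in every library the mean before surgery was −0.32, with −1.21 in letter A, −1.30 in letter C and 0.77 in letter D, so the near-equal shares of those letters are not equal on that scale. Without letter E the mean log2 ratio of shares was −0.54 after and −0.33 before surgery.

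The fits across all names gave no call of miR-122-5p between EVs and serum. After surgery the log2 fold change of EVs against serum was 0.93 (SE 1.33, adjusted p = 0.831, edgeR), in a comparison where edgeR called 0% of 747 names, with 60 at an unadjusted p under 0.05, while DESeq2 called 41 and limma-voom 42. Before surgery it was −1.27 (SE 1.17, adjusted p = 0.640, edgeR), where 2.99% of 768 names were called and miR-122-5p was not among them. The median over all names was 0.35. With the letter as replicate block 0 of the 768 names were called before surgery, and miR-122-5p was at −0.64 (SE 1.07, adjusted p = 0.731, edgeR). The value of miR-122-5p was 0.58 under library totals, where the median over all names was 1.04, and 1.28 without serum of letter B, so its direction changed with the scaling and with 1 library. The test of the difference between the 2 contrasts gave a log2 value of 2.38 (SE 1.98, adjusted p = 1.00, edgeR, n = 3, 3, 5 and 5), among 1018 names of which 0% were called, with 85 at an unadjusted p under 0.05. DESeq2 called 5 of these and limma-voom 0.

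Variation between libraries of 1 group was large for this miRNA. The highest share was 28.8 times the lowest in EVs after surgery and 88.7 times in EVs before surgery, against a median of 4.05 and 5.34 over the 375 names above 0 in every library. In serum the factor was 4.80 after surgery and 61.4 before surgery, against 2.71 and 9.61. By the SD of the log2 share miR-122-5p ranked 2 of 375 in EVs after surgery, 2 in EVs before surgery, 84 in serum after surgery and 24 in serum before surgery.

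The summed share of other liver-linked names was not raised in the EV libraries where miR-122-5p was highest. Of a list of 12, 9 were in the table, namely miR-122-5p and 8 others; miR-122-3p, miR-192-3p and miR-455-3p are not analysed here. The 8 others together took 2.30%, 1.61% and 1.04% in EVs of letters D, E and F after surgery and 1.21% to 2.97% in EVs before surgery. In serum they took 0.529%, 2.55% and 1.53% in letters D, E and F after surgery and 0.811% to 2.15% before surgery. miR-122-5p was 5.77 and 11.4 times this sum in EVs of letters D and E after surgery and 0.614 times in letter F, against 0.0596 to 3.28 times in EVs before surgery. The sum itself stayed in or below its range from before surgery in all 3 EV libraries after surgery. Within letters it was 2.30% after and 2.80% before surgery in EVs of letter D, and 1.61% and 2.43% in letter E. Most names had lower shares in these 2 pairs (median log2 change −0.96 and −0.94 over 375 names). A sum of shares therefore does not show how these names changed relative to the others. It also hides single names. In EVs of letter E after surgery the share of miR-148a-3p was above that of every EV library from before surgery. In EVs of letter D after surgery the same held for miR-365a-3p, which was at 0 in EVs of letters A, B and E before surgery. In both libraries miR-885-5p was below every EV library from before surgery. The remaining shares of the 8 names in these 2 libraries lay within their range from before surgery. In EVs, 4 of the 7 tested liver names, miR-122-5p included, had positive log2 fold changes after surgery (median 0.24, against −0.017 over all 856 names) and none was called. The others with positive values were miR-148a-3p, miR-192-5p and miR-483-3p. Over all names 415 of 856 were positive.

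**Figure D4:**
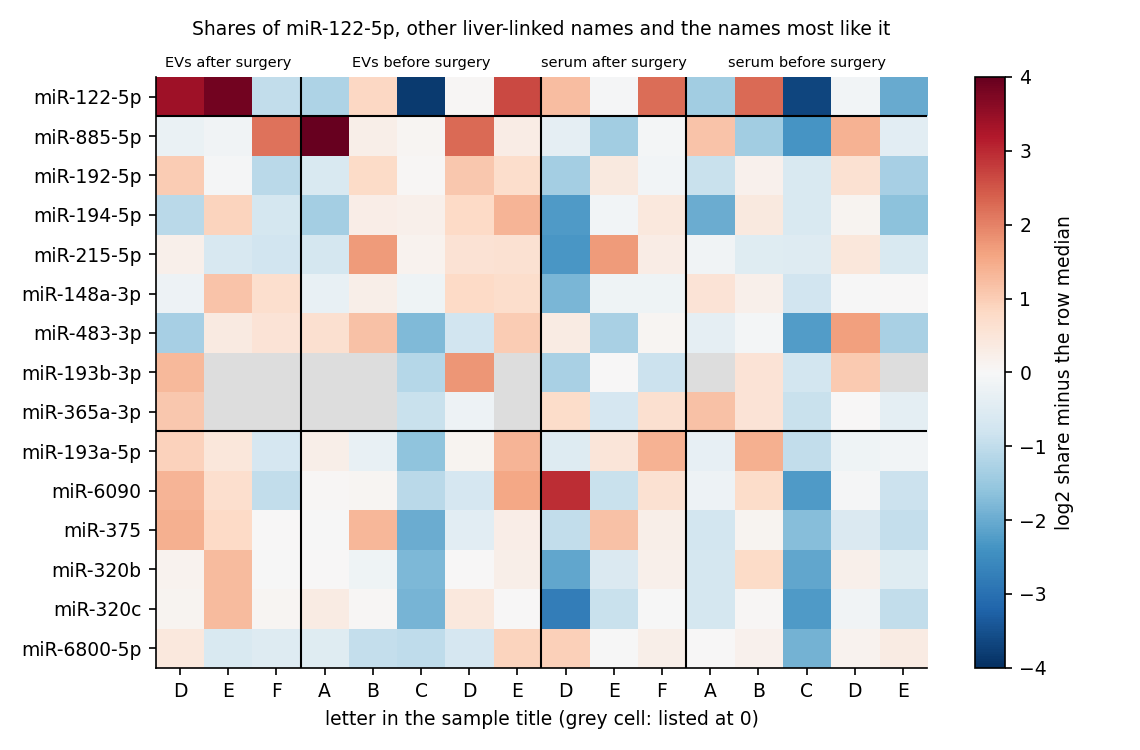
Rows are miR-122-5p, the 8 other liver-linked names and the 6 names whose pattern was most like it, and columns are the 16 libraries by group and letter. Colour is the log2 share minus the median of the row, and grey marks a count of 0. The deep red of miR-122-5p in EVs of letters D and E after surgery is not matched by the other liver names in those 2 libraries, and the reddest cell of the others is miR-885-5p in EVs of letter A before surgery.

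By role, miR-192-5p and miR-194-5p, which are made from shared transcripts in liver and gut, had log2 fold changes of 0.48 (SE 0.86) and −0.12 (SE 0.77) in EVs after against before surgery. miR-192-5p took 0.924% ± 0.628 of counts in EVs after surgery (SD, n = 3) and 1.14% ± 0.464 before surgery (n = 5). Its serum share was 0.705% ± 0.373 after and 0.679% ± 0.369 before surgery. miR-148a-3p, abundant in hepatocytes, had 0.70 (SE 0.66) in EVs, and miR-215-5p, a relative of miR-192 rich in gut, had −0.31 (SE 0.83). miR-483-3p, which lies in an intron of the growth factor gene IGF2, had 0.24 (SE 0.52) in EVs, and miR-885-5p, reported as a blood marker of liver disease in humans, had −0.95 (SE 0.90). The adjusted p was 0.999 for each of these 6 in EVs (edgeR). In serum 7 of 9 liver names, miR-122-5p included, had positive values (median 0.21, against −0.20 over all 696), from −0.45 for miR-148a-3p to 1.09 for miR-122-5p, again with none called. Over all names in serum 290 of 696 were positive. miR-193b-3p was listed at 0 in 7 libraries and miR-365a-3p in 5, in the libraries that share zeros.

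The names most like miR-122-5p over the 16 libraries were found by Pearson correlation of log2 CPM (counts scaled to a common library size), among 373 names above 0 in every library with a mean of at least 100 CPM. These were miR-193a-5p (r = 0.80), miR-6090 (0.76), miR-375 (0.74), miR-320b (0.68), miR-320c (0.57) and miR-6800-5p (0.56). The least like were miR-142-5p (−0.64) and miR-191-5p (−0.60), miRNAs of white blood cells and platelets, and miR-150-3p (−0.59). The median r was 0.077, and the libraries share letters, depth and composition, so these values only describe the order. Of the liver names, miR-483-3p was nearest at rank 11 (0.45), followed by miR-192-5p at rank 13 (0.43) and miR-194-5p at rank 25 (0.35), while miR-885-5p stood at rank 280 (−0.089).

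miR-193a-5p, the most alike, kept to a narrower range of shares than miR-122-5p. Its share in EVs was 0.124%, 0.0881% and 0.0409% in letters D, E and F after surgery and 0.0211% to 0.169% before surgery, the highest being letter E. Its highest serum shares were 0.170% in letter F after surgery and 0.173% in letter B before surgery, the same 2 libraries that were highest for miR-122-5p. miR-375, known from pancreatic islets and gut endocrine cells, had 0.980%, 0.634% and 0.370% in EVs of letters D, E and F after surgery and 0.0937% to 0.919% before surgery. miR-6090, which belongs to the fragment-prone list, had 2.27%, 1.42% and 0.449% in EVs of letters D, E and F after surgery, against 0.425% to 2.59% before surgery, and 6.91% in serum of letter D after surgery. For all 3 the EV order after surgery was D, E, F, whereas miR-122-5p was higher in E than in D.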

How the data were processed

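The deposited table holds whole-number counts per human miRNA or piRNA name, which the authors deposited after sequencing QIAseq libraries of 1 ng RNA, per the labels' protocols. Per the submitters' processing notes, hg19 (human) was the build and bcl2fastq 2.20.0.422 a tool; which aligner and counter made the table, and whether molecular identifiers were collapsed, is not given in the sources used here. Reads from sheep were counted under human names, and the mature sequence of miR-122-5p was not checked here. The extraction text is the same for serum and EV libraries.

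Each comparison was fitted on all names of its groups by the quasi-likelihood test of edgeR 4.0.16 under R 4.3.3 (scaling by TMM, minimum count of 10, Benjamini-Hochberg adjustment, threshold 0.05), and the fit was tested on simulated data. TMM factors ran from 0.278 to 2.94. Shares and ratios were compared on the log2 scale with 2-sided exact permutation tests (scipy 1.17.1). Those of the group after against the group before surgery treated all values as independent, although letters D and E are in both groups. Alternatives included DESeq2 1.42.0 and limma-voom (limma 3.58.1). Shared zeros were joined at a phi above 0.8. Names were chosen as miR-122-5p, the liver list, and the 6 most and 3 least like it by correlation. The member, the lists and the tests were chosen with earlier results of these data known.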

Additional observations from a re-analysis of the deposited data

Results flagged for a closer look

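In all, 3 values of miR-122-5p stood far from the other 4 letters of their group before surgery, with a gap to the nearest value of more than 0.71 of the range of the group. The share in serum of letter B before surgery was 6.15%, where the other 4 were 0.100% to 1.18%. The share in EVs of letter E before surgery was 7.97%, where the other 4 were 0.0899% to 2.25%. The log2 EV-to-serum ratio of letter E before surgery was 4.68, where the other 4 were −1.45 to 0.14, and it rests on the same EV library. On the log2 scale, on which the shares were tested, that gap was 0.28 of the range for EVs of letter E and 0.40 for serum of letter B, so neither share stood apart there. Chance flags about 1 in 20 groups of this size where values are normally distributed, which percent shares spanning such ranges need not be. Groups of 3 were not looked at.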

How the results depend on the processing

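No alternative brought miR-122-5p past an adjusted p of 0.05 in any of the 5 edgeR comparisons, and in EVs after against before surgery all 20 kept its direction (log2 fold change 2.15 to 4.21). Serum after against before surgery gave −1.02 with a term for the zero-sharing sets and 0.43 to 3.76 when single libraries were left out. EVs against serum before surgery gave 0.58 under library totals and −2.18 to 1.28 with single libraries left out (1.28 without serum of letter B); DESeq2 gave no p for it. EVs against serum after surgery gave −0.10 by limma-voom, and the difference between these contrasts −0.32 to 3.29 with libraries left out, the lowest without serum of letter B before surgery. That difference, 2.38 in the main fit, was 1.06 with the letter as replicate block (SE 2.40), 1.10 under library totals and 0.38 by limma-voom. With a term for the zero-sharing sets it was 3.60. The mean log2 EV-to-serum ratio before surgery was −0.61 with TMM and −0.32 relative to names above 0 everywhere, and −0.33 to 1.20 with letters left out. After surgery it was −0.097 with TMM and −0.54 to 3.02 with letters left out, and the difference between the times was −1.21 to 2.35. The mean log2 change within letters D and E in serum, 1.67, was 2.95 with TMM and 2.69 relative to names above 0 everywhere. With the letter as replicate block, the log2 fold change was 3.25 in EVs (SE 1.03, adjusted p = 0.465, edgeR) and 2.86 in serum (SE 1.92, adjusted p = 1.00); deviations of same-letter libraries after and before surgery correlated at 0.11 to 0.42 over 4 pairs, 2 in each fit, and those of EVs and serum at the same time at −0.31 to 0.70 over 8 pairs. The labels do not say that a letter is 1 animal, and for after against before surgery 2 pairs a fit were taken as too few to set the pairing. The fits without the block are the ones reported. Between EVs and serum all letters are paired, 5 before and 3 after surgery. With the block the log2 fold change there was −0.64 (SE 1.07, adjusted p = 0.731, edgeR) before surgery. After surgery it was 0.72 (SE 1.84, adjusted p = 0.871, edgeR), and 0 names were called at either time. The names called in EVs against serum numbered 0 to 151 before surgery and 0 to 251 after it across alternatives, 0 to 2 in serum and 0 in EVs after against before surgery, and 0 to 6 for the difference between contrasts. For the contrasts of EVs against serum before and after surgery, the sets of shared zeros could not be fitted as a term. The fit within 1 set was added after seeing the data. Each group after surgery holds 3 libraries.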
